A study of Mus musculus with 2 samples.

Results

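The cells described here are hippocampal interneurons chosen by their marker transcripts: 247 of 15930 cells, 82 of the 7094 in the wild-type library and 165 of the 8836 in the knock-in library. A cell was taken when Gad1 plus Gad2 reached at least 3, Lef1 and Otx2os1 were each below 2, and Lhx6 plus Nxph1 plus Sox6 reached at least 3 and exceeded Adarb2. These numbers are the whole-number, depth-corrected values of the deposited table, which were treated as scores and not as molecule counts. The 8 rule genes therefore chose the cells, and their levels below are a description and not a result.

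GABAergic interneurons make the inhibitory transmitter GABA with the glutamate decarboxylases encoded by Gad1 and Gad2. Those born in the medial ganglionic eminence keep the transcription factors Lhx6 and Sox6 and often the secreted neurexin ligand neurexophilin 1 (Nxph1), and they give rise to somatostatin (Sst) cells, which reach pyramidal cell dendrites, to fast-spiking parvalbumin (Pvalb) basket cells, which reach the soma, and in the hippocampus to Ivy cells, which use nitric oxide synthase. Those born in the caudal ganglionic eminence typically carry Adarb2, Prox1, and subsets with vasoactive intestinal peptide (Vip) or cannabinoid receptor 1 (Cnr1).

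Both libraries came from the hippocampus of C57Bl.6/J mice, 1 from wild-type controls and 1 from mice homozygous for the knock-in allele Pigv341E. The product of Pigv adds a mannose during assembly of glycosylphosphatidylinositol (GPI), the lipid anchor of many cell surface proteins, and homozygous mice carry the allele in every cell type, interneurons included. Cells of 4 mice (8 hippocampi) were pooled per genotype, freed by mechanical dissociation in the cold, and made into 1 10x Genomics droplet library each, so that genotype, library and dissection cannot be told apart. No difference below has a replicate or a test, and the age and sex of the mice are not given in the sources used here.

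The promoter of Sst is shown with those of Npy and Pvalb because these 3 genes mark the subtypes described below. Each sequence holds the 250 bases before the RefSeq transcript start (GRCm38.p6), read in the direction of transcription. Capitals mark TGACGTCA, the cyclic AMP response element letters, which read the same on both strands.

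Sst, chr16:23890845-23891094, minus strand: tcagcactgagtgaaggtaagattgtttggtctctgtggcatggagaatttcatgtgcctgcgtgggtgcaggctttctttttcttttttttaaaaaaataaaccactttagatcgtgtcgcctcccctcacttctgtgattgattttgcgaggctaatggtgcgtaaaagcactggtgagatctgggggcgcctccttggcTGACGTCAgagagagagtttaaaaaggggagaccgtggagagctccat
Npy, chr6:49822460-49822709, plus strand: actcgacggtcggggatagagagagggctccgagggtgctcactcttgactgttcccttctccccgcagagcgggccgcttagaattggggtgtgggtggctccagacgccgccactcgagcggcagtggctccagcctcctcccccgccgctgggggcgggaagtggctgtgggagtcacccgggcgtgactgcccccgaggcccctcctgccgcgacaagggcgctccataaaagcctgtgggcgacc
Pvalb, chr15:78206401-78206650, minus strand: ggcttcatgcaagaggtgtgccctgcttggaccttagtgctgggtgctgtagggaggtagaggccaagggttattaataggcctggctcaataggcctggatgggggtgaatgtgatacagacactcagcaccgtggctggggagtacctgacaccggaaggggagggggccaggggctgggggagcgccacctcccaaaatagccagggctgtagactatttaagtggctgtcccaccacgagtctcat

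The Sst window held the element once, with its first base at -48 from the start, and the Npy and Pvalb windows did not hold these letters. The windows of Cort, Nxph1, Elfn1, Gad1 and Gad2 did not hold them either. Over all genes the element was in 508 of 32851 windows (1.55%), and in 227 of the 8107 windows of genes measured in these cells (2.80%). GENCODE M21 puts the 5′ end of Sst at 23890958, upstream of the RefSeq start, so by that annotation the marked element lies inside the gene. A match is a description of the letters only.

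Within the chosen cells Nxph1 carried most of the rule. It was at 3 or more in 237 of 247 cells, Sox6 in 120, and Lhx6 was above 0 in 96 and at 2 or more in 26. In 62 cells the sum was Nxph1 alone, and 5 cells had no Nxph1. Per cell, Nxph1 had a median of 31.5 and a range of 0 to 104 in the wild-type library, against a median of 27 and a range of 0 to 151 in the other. Lhx6 ran from 0 to 5 and from 0 to 4, with a median of 0 in both. The label thus rests on Nxph1 and Sox6 more than on the factor it is named for.

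At the edge of the rule, 30 members had Gad1 plus Gad2 at exactly 3 and 63 cells outside had exactly 2 while meeting every other criterion. The median of the Lhx6, Nxph1 and Sox6 sum was 37 in the first set and 27 in the second. Members with that sum between 3 and 5 numbered 9, against 10 GABAergic cells left outside at 1 or 2. Adarb2 was at 3 or more in 50 members, whose sum still exceeded it.

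Of the 474 cells that met the GABAergic criterion, 188 were of the Adarb2 type (Adarb2 at 3 or more and above the sum) and 39 of neither type. In the wild-type library the share of the Lhx6 Nxph1 type among all cells was 1.16% (exact Clopper-Pearson 95% interval 0.920 to 1.43). In the knock-in library it was 1.87% (1.60 to 2.17), and the intervals do not overlap. Among GABAergic cells the share of this type was 49.7% (41.8 to 57.6) in the wild-type and 53.4% (47.7 to 59.1) in the knock-in library, with overlapping intervals. These intervals cover counting error only, and variation between mice and dissections was not measured.

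The values per cell had a median total of 10234.5 among wild-type and 10285 among knock-in members, and a median of 4214 and 4463 genes was detected. Over all cells the medians were 8631 and 9608 for the total and 3122 and 3736 for detected genes, so the knock-in library was higher in both. Scrublet called 0 and 6 of the members as doublets, and they were kept. Of 28 cell barcodes found in both libraries, 1 belonged to a knock-in member and none to a wild-type member.

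Levels are given from here as a gene's share of all values in the named cells, times 10000, and may be compared across cells for a gene but not between genes. Where 2 values are joined by "and", the wild-type library comes first. Sst stood at 2.62 in wild-type cells and 1.95 in knock-in cells, at 0.060 and 0.0338 in the Adarb2 type, and at 0.0679 and 0.0880 over all other cells of the series. Nxph1 stood at 36.1 in wild-type cells and 29.9 in knock-in cells, against 1.03 and 1.30 in all other cells. The largest ratio over all other cells among genes with a level of at least 1 belonged to Kcnmb2, a regulatory subunit of calcium-activated potassium channels, at 13.6 in wild-type cells and 11 in knock-in cells against 0.251 and 0.292. Next came Nxph1, Gad2, the long noncoding Dlx6os1, the collagen gene Col19a1 and the kainate receptor subunit Grik1 (18.9 and 16.9 against 1.14 and 1.24). These genes were also high in the Adarb2 type, with Kcnmb2 at 7.37 and 5.64, Gad2 at 4.97 and 5.22 and Col19a1 at 8.17 and 5.97. Grik1 stood there at 13.9 and 15.6, and Nxph1 at 8.69 and 10.9. Dlx6os1 was higher there, at 6.29 and 5.82 against 3.46 and 3.30 in the members. Erbb4, the neuregulin receptor of interneurons, was among the leading 15 at 62.6 in wild-type cells and 68.0 in knock-in cells against 5.45 and 5.54, and at 61.3 and 69.7 in the Adarb2 type. Kcnc2, a potassium channel gene known from fast-spiking cells, stood at 20.6 in wild-type cells and 19.1 in knock-in cells against 1.45 and 1.80 in all other cells. Kcnc2 was not among the listed ion channel genes higher than in the Adarb2 type by at least 1 on the log2 scale in both libraries. Since the rule picked these cells, the leading genes describe them and test nothing.

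**Figure D1:**
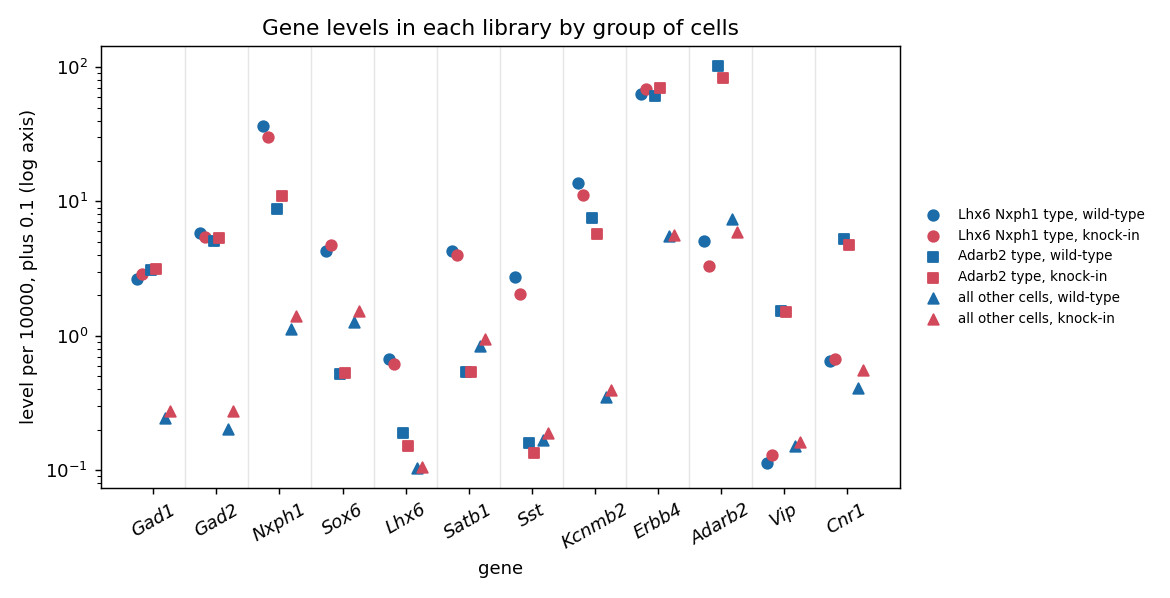
Level per 10000 plus 0.1 (log axis) of 12 genes in the wild-type (blue) and knock-in (red) library, for Lhx6 Nxph1 type cells (circles), Adarb2 type cells (squares) and all other cells of the series (triangles, all cells outside the Lhx6 Nxph1 type). Nxph1, Sox6, Satb1 and Sst sit above both other groups in both libraries, Erbb4 is shared with the Adarb2 type, and Adarb2, Vip and Cnr1 sit below the Adarb2 type.

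The most like cells of the series are those of the Adarb2 type. Of 2002 genes that met the level and detection limits, 115 (5.74%) passed: 59 (2.95%) were higher and 56 (2.80%) were lower in the Lhx6 Nxph1 type by at least 1 on the log2 scale in both libraries, and 0 went in opposite directions. The limits, met in both libraries, were a level of at least 1 in 1 of the cell types compared and a value above 0 in at least 10% of its cells. A gene could meet them only through the type in which it was high, so these counts describe the types and support nothing. Sst had the largest ratio, with log2 values of 4.09 and 3.93 for wild-type and knock-in. The transcription factor Satb1, which acts in the maturation of medial ganglionic eminence interneurons, stood at 4.20 and 3.92 against 0.435 and 0.440 (log2 3.01 and 2.90). Sox6, one of the rule genes, gave 3.03 and 3.17.

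Lypd6b, which encodes a GPI-anchored modulator of nicotinic receptors, was at 1.94 and 1.20 against 0.060 and 0.0846 (log2 3.67 and 2.82). Cacna2d2, an auxiliary subunit of voltage-gated calcium channels, was at 2.03 and 2.27 against 0.270 and 0.237 (log2 2.53 and 2.82). The synaptic organiser Il1rapl2 (2.31 and 2.40), the receptor phosphatase Ptprt (2.02 and 1.88), the adhesion receptor Adgrl2 (2.16 and 2.15) and the guidance ligand Slit2 (2.05 and 2.36) were higher as well. Nek7 (2.27 and 2.21), Iqcj (2.27 and 2.14) and Gm32647 (2.67 and 1.93) completed the 12 leading genes.

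Among the lists of genes for interneurons, 2 of 7 transcription factors that met the limits were higher (Satb1, and Sox6, which the rule used), 4 of 23 synaptic adhesion genes (Cntnap4, Il1rapl2, Ptprt, Cdh13), 2 of 15 ionotropic glutamate receptor genes (Grik3, Grin3a) and 5 of 18 GPI-anchored proteins (Gpc5, Gpc6, Lypd6b, Cdh13, Efna5), while Ntng1 of the last list was lower. Of 27 ion channel genes, 2 were higher (Kcns3 and Cacna2d2) and 3 were lower (Kcnip4, Kcnq5 and Kcnt2). No GABA-A or GABA-B receptor gene of 9 and no GABA synthesis or uptake gene passed in either direction, beside 5.74% of all 2002 genes. Maf, a factor of the same lineage, stood at 4.34 and 3.84 against 2.30 and 2.01, and the AMPA receptor subunit Gria1 at 31.0 and 23.9 against 10.6 and 12.5, neither of which passed in both libraries.

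Of 10 genes known from caudal ganglionic eminence cells, 4 met the limits and had lower levels in the Lhx6 Nxph1 type. Vip, Cnr1 and Prox1 met them only through the Adarb2 type, where they are high, and Adarb2 is a rule gene, so the count is a description. Adarb2 was at 5.01 and 3.20 against 102 and 83.1. Vip stood at 0.0122 and 0.0299 against 1.43 and 1.40, Cnr1 at 0.548 and 0.573 against 5.12 and 4.65, and the homeobox gene Prox1 at 0.171 and 0.227 against 1.19 and 1.19. Cadps2, a vesicle priming factor, gave log2 ratios of -3.25 and -2.43, Rgs12 of -3.03 and -2.02 and Sorcs3 of -1.76 and -2.30. The netrin-like adhesion gene Ntng1 gave -4.19 and -2.20, and its level differed between the libraries. Pbx3, Glis3, Pde7b and Ptk2b were lower too, with log2 ratios between -2.01 and -1.58.

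**Figure D2:**
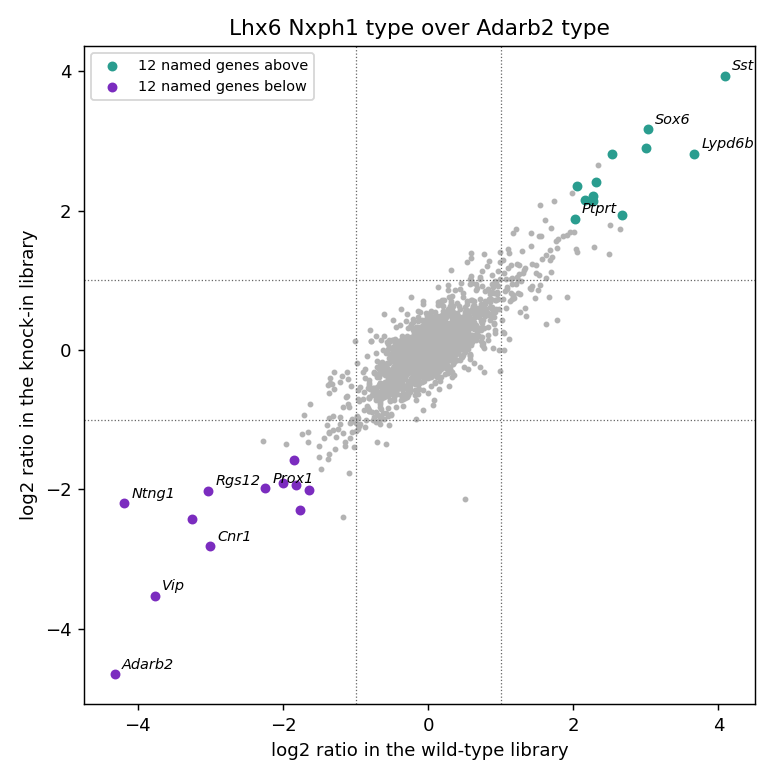
Log2 ratio of the level in the Lhx6 Nxph1 type over the Adarb2 type for each gene that met the level and detection limits in the Lhx6 Nxph1 type (grey) and for the named genes (coloured), some of which met them in the Adarb2 type alone, wild-type library on the x axis and knock-in library on the y axis, with dotted lines at 1 and -1. The 12 named genes on either side lie in the upper right and lower left corners, with Sst at 4.09 and 3.93 and Adarb2 at -4.32 and -4.66.

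Sst and Erbb4 varied among the members. Sst is a peptide that the rule did not use, and it was at 5 or more in 14 of 82 wild-type cells (17.1%, exact interval 9.66 to 27.0). The knock-in library had 21 such cells of 165 (12.7%, 8.05 to 18.8). The highest Sst value was 39 for wild-type and 31 for knock-in, while the median was 0 in both. As a background, Sst reached 5 in 1 of 6224 wild-type and 1 of 7485 knock-in cells without Gad1 or Gad2, whose median detected genes were 2893.5 and 3517. It reached 5 in 0 of 69 and 0 of 119 cells of the Adarb2 type, for which the exact upper limits are 5.21% and 3.05%. In both libraries the share among the members was above that in cells that should lack the gene, and the intervals of its shares overlap between them.

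Erbb4 ran the other way. It was at 20 or more in 8 of the 35 cells with Sst at 5 or more, and in 129 of the 181 cells with Sst below 2. All 11 cells with Pvalb at 3 or more had Erbb4 at 20 or more, as did 147 of all 247 members. None of the 35 cells with Sst at 5 or more had Pvalb at 2 or more. That value was rare among all members (8.54% of wild-type and 7.88% of knock-in cells), so its absence from 35 cells says little. Elfn1, a postsynaptic gene that shapes the excitatory input of Sst cells, was at 2 or more in 27 of the 35. It was so in 31 of the 181 cells with Sst below 2.

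**Figure D3:**
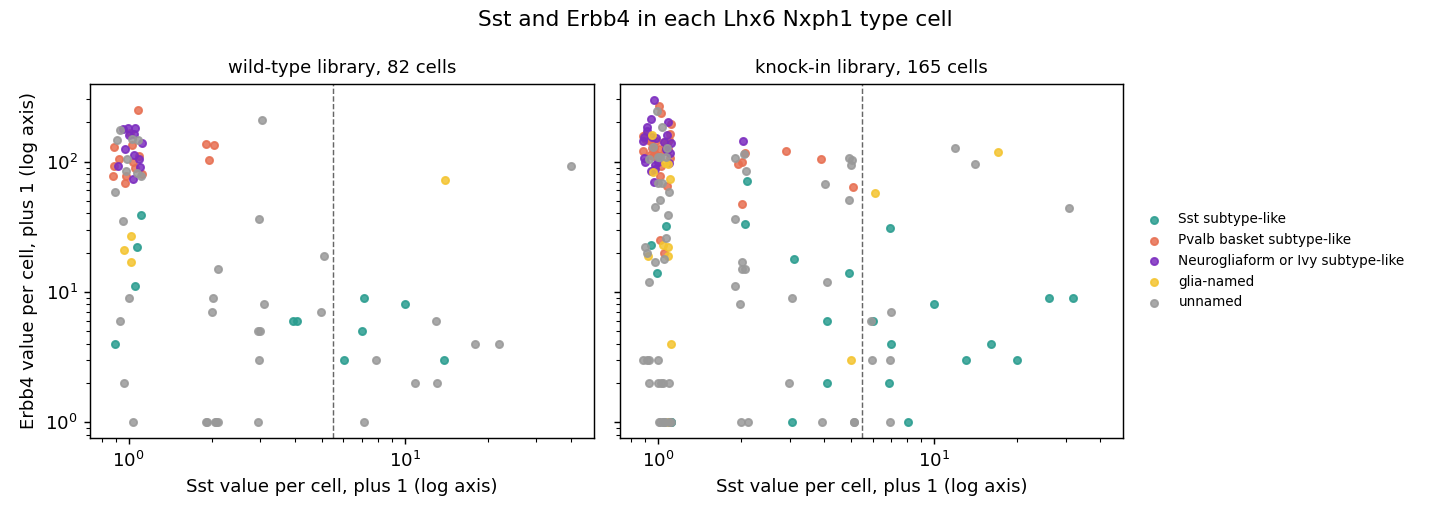
Sst value plus 1 against Erbb4 value plus 1 (log axes, Sst shifted sideways by a small random amount) for each of the 82 wild-type and 165 knock-in Lhx6 Nxph1 type cells, coloured by the subcluster name of the cell. The dashed line separates cells with Sst at 5 or more, of which 8 of 35 have Erbb4 at 20 or more. Neurogliaform or Ivy-like and Pvalb basket-like cells gather at low Sst and high Erbb4.

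Pvalb was at 3 or more in 5 of 82 wild-type cells (6.10%, 2.01 to 13.7). The knock-in share was 6 of 165 (3.64%, 1.35 to 7.75). The highest Pvalb value was 5 in both. It reached 3 in 0 of 6224 and 2 of 7485 cells without Gad1 or Gad2. Npy, the neuropeptide of Ivy cells and part of the Sst cells, was at 5 or more in 5 (6.10%, 2.01 to 13.7) and 4 cells (2.42%, 0.664 to 6.09). The Adarb2 type held it at that value in 3 of 69 and 4 of 119 cells, with exact intervals (0.906 to 12.2 and 0.923 to 8.38) that overlap those of the members. Of the 9 members with Npy at 5 or more, 6 had Sst at 2 or more. With each cell thinned to a total of 1000, Sst was above 0 in 17.1% and 13.9% of members, Pvalb in 1.22% and 4.24%, and Npy in 10.98% and 5.45%, and the exact intervals overlap between libraries for each. Without thinning, Pvalb was above 0 in 15.9% of wild-type and 18.8% of knock-in members. The order of the libraries for Pvalb thus depended on the cutoff.

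Cells with Sst at 5 or more (14 and 21) were set against those with Sst below 2 (57 and 124) within each library. Of 1992 genes, 153 (7.68%) passed the same criterion: 58 (2.91%) were higher and 95 (4.77%) were lower in the same direction in both libraries. Here too a gene could meet the limits only through the group in which it was high, so the counts describe the groups and support nothing. The cells with Sst below 2 were of several kinds, among them the neurogliaform or Ivy-like cells described below. Elfn1 was higher by a log2 ratio of 2.58 and 2.54, Lypd6b by 2.48 and 2.79, and Grin3a, an NMDA receptor subunit, by 2.52 and 2.13. The peptidase gene Trhde gave 2.90 and 2.46, the glycosyltransferase gene Mgat4c 2.79 and 2.43 and the vesicle protein gene Synpr 2.51 and 2.09. The calcium channel subunit Cacna2d3 gave 1.97 and 2.00 and Npy 1.96 and 2.59, and the other named genes above were Gm28175, Frmd4b and Trpc6.

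The genes lower in Sst cells included another subunit of the same family, Cacna2d1, at -4.16 and -4.98. Adarb2 gave -4.25 and -4.18, the nuclear factor gene Nfia -3.64 and -3.72 and its relative Nfib -3.35 and -3.77. The homeobox gene Meis2 gave -3.60 and -4.45, the orexin receptor gene Hcrtr2 -2.94 and -3.60 and the proteoglycan gene Vcan -3.49 and -2.76. Tll1, Pde11a, Caln1, Galnt18 and Maml2 were also lower, with log2 ratios of -2.81 or further below 0 in both libraries. Among GABA-A and GABA-B receptor genes, 2 of 8 were lower in Sst cells, Gabrb2 (-1.64 and -1.04) and Gabrg3 (-2.84 and -1.84), and none was higher. Of 14 ionotropic glutamate receptor genes, Grin3a alone passed. The muscarinic receptor gene Chrm3 was higher (2.01 and 1.79), as was Cdh9, while Erbb4 (-2.52 and -1.74), Cntnap4, Nlgn1, Ptprd and Cdh18 were lower.

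Clustering of the 247 cells gave 12 subclusters. By the marker lists, 1 of them was Sst-like (36 cells, 11 wild-type and 25 knock-in), 2 were Pvalb basket-like (52 cells, 16 and 36) and 1 was neurogliaform or Ivy-like (36 cells, 12 and 24). These named classes held 13.4% and 15.2%, 19.5% and 21.8%, and 14.6% and 14.5% of wild-type and knock-in members, and the exact intervals overlapped between libraries in each. A further 5 subclusters (105 cells) stayed unnamed and 3 (18 cells, 4 and 14) carried glial markers. The clusters were made from the same cells and genes, so their leading genes describe them and are not results.

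The neurogliaform or Ivy-like cells (Ivy-like from here) had Cacna2d1 at 23.0 and 28.3, against 0.0616 and 0.0810 in Pvalb basket-like and 0.367 and 0.743 in Sst-like cells. Of the 8 markers of their list, 5 counted by the naming rule (Lamp5, Nos1, Id2, Cacna2d1 and Sv2c). Npy, the neuropeptide of Ivy cells, did not count, nor did Reln and Ndnf. The Ivy-like cells had Lamp5 at 1.41 and 1.92, the nitric oxide synthase gene Nos1 at 1.91 and 3.19, and Hapln1, a link protein of the extracellular matrix, at 5.23 and 7.08. Sox6 in them stood at 0.166 and 0.368 and Satb1 was at 0 in both libraries, while Lhx6 was at 1.25 and 0.859 against 0.459 and 0.508 in Sst-like cells. The Adarb2 level of the Ivy-like cells was 8.97 and 7.98, against 0.185 and 0.135 in Pvalb basket-like cells. They therefore met the rule through Nxph1, at 38.9 and 43.3.

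Pvalb basket-like cells had the potassium channel gene Kcnc2 at 39.2 and 33.0, against 13.8 and 15.3 in Sst-like and 3.16 and 4.95 in Ivy-like cells. Kcnc1, of the same fast-spiking channel family, stood at 6.96 and 8.64 in Pvalb basket-like and at 1.74 and 2.50 in Sst-like cells. Erbb4 stood at 113 and 118, against 9.63 and 10.7 in Sst-like cells. Subcluster 11 led with Cntnap5b, Syt2 and Pvalb itself (1.81) and Unc5b, and subcluster 5 led with the peptide genes Cort and Tac1, with Pvalb at 0.384. Pvalb did not count as a marker of subcluster 5, whose name rests on Tac1, Cntnap4, Kcnc1, Erbb4 and Btbd11. Crhbp of the Sst list was among its leading genes. Sst-like cells had Grin3a at 9.90 and 9.18, Elfn1 at 5.04 and 3.28 and Sst at 4.13 and 6.14.

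**Figure D4:**
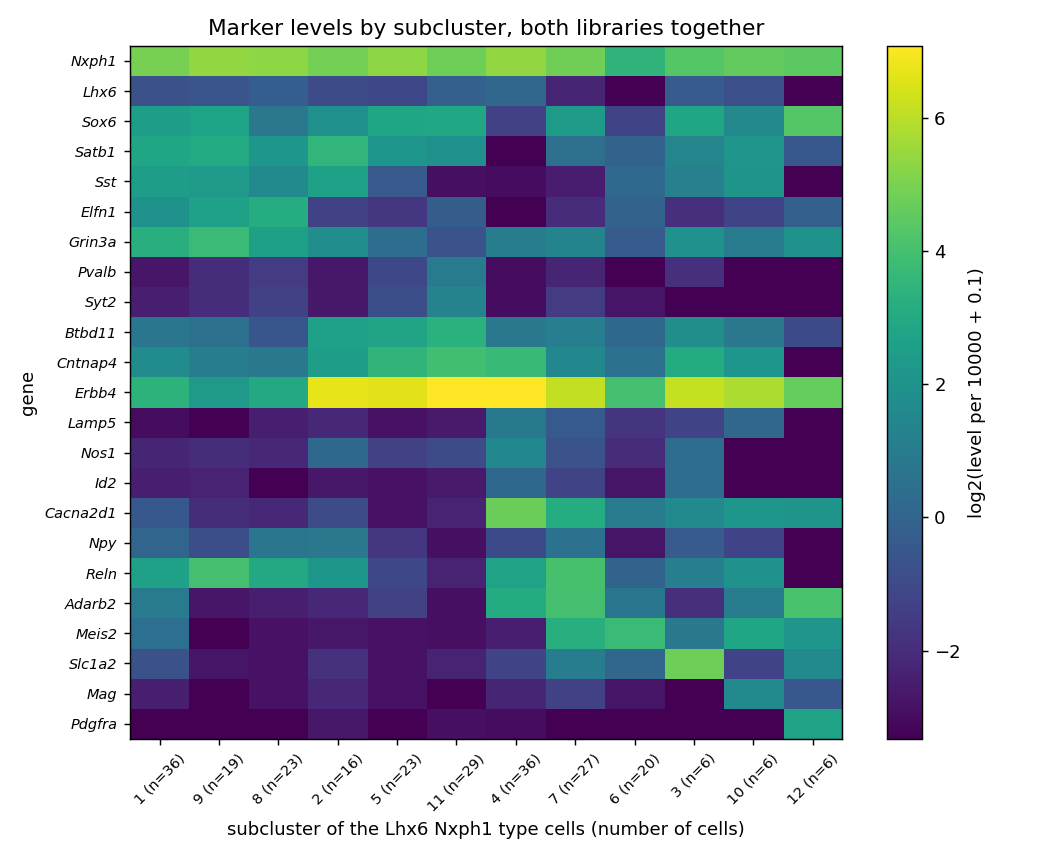
Colour shows log2 of the level per 10000 plus 0.1 of 23 genes (rows) in the 12 subclusters of Lhx6 Nxph1 type cells (columns, with the number of cells), both libraries together. Subcluster 1 is the Sst-like one, 5 and 11 are Pvalb basket-like, 4 is Ivy-like, 3, 10 and 12 carry astrocyte, oligodendrocyte and precursor markers, and the others are unnamed. Erbb4 is low in subclusters 1, 8 and 9, where Elfn1 and Grin3a are high.

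The unnamed subclusters fell short of a name for different reasons. Subcluster 9 (19 cells, 12 wild-type and 7 knock-in) had 5 of 7 Sst markers but Trpc6 of the dentate granule list among its leading genes, and subcluster 8 (23 cells, 10 and 13) had Elfn1 among its markers and Zfpm2 among its leading genes. Subcluster 2 (16 cells) had Sst at 6.08 and Erbb4 at 104 together, and led with Gm43670, Kcnip4 and Pth2r. Subcluster 7 (27 cells) led with Kit and carried Reln (16.3), Ndnf and Adarb2 (16.2). It had 6 of the 8 neurogliaform or Ivy markers, more than the 5 of subcluster 4, but none among its leading genes. Those leading genes held Glis3 of the dentate granule list and Sox11 of the immature neuron list. In subcluster 6 (20 cells, 4 and 16) Ano2, Zic1, Prkcd and Prdm16 were in front, Lhx6 was at 0 and Meis2 at 13.3. Its best match was the pyramidal neuron list, with 3 of 8 markers (Slc17a7, Camk2a and Nrgn) and none among its leading genes. Meis2 was at 3 or more in 34 members, 1 of which had Lhx6 above 0, so these cells go against the label although they met the rule.

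Between the libraries, 20 of 2117 genes (0.945%) passed the size rule in these cells: 12 (0.567%) with more and 8 (0.378%) with less in the knock-in library. The size rule asks for a log2 ratio of at least 1 in size after 0.1 was added to both levels, with the level and detection limits above. The median log2 ratio of the 2117 genes was -0.06, with quartiles of -0.20 and 0.11. In the Adarb2 type 14 genes passed (0.662%) and over all cells of the series 6 (0.289%). Of the 20 genes, 9 also passed in the same direction in the Adarb2 type and 6 over all cells.

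Pigv, the targeted gene, was too low in these cells to check the labels, at 0.134 in wild-type cells and 0.0776 in knock-in cells. The gene is at chr4:133660387-133672647 on GRCm38, and the allele changes its sequence, which transcript levels do not read.

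The largest differences are given beside the ratio in the Adarb2 type. Hdc, the histidine decarboxylase that makes histamine, ranged over wild-type cells from 0 to 2 (median 0) and over knock-in cells from 1 to 19 (median 6). It was above 0 in 4 of 82 wild-type and in 165 of 165 knock-in cells. Its level went from 0.0609 to 6.32 (log2 5.32), and the Adarb2 type gave 4.93. Gm14216, a long intergenic noncoding RNA gene, went from 0.0244 to 6.40 (log2 5.71), and was above 0 in 2 wild-type and 163 knock-in cells. Abl1, the tyrosine kinase of actin and receptor signalling, had a wild-type median of 6 with a range of 0 to 19, against a knock-in median of 0 with a range of 0 to 7. Its level went from 6.45 to 0.693 (log2 -3.05, Adarb2 type -3.30), so the values of single cells overlapped between libraries while the medians were apart. Sec22b, a vesicle transport gene, went from 6.91 to 3.28 (log2 -1.05). On GRCm38 these genes lie at chr2:126593667-126619299 (Hdc), chr2:154722352-154738451 (Gm14216), chr2:31688376-31804227 (Abl1) and chr3:97901190-97923276 (Sec22b).

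The Hdc and Abl1 differences held in each named class. Abl1 stood at 5.14 and 0.547 in Sst-like, 7.21 and 0.540 in Pvalb basket-like and 6.23 and 0.859 in Ivy-like cells of the wild-type and knock-in library. Hdc was at 0 in the wild-type cells of all 3 classes and at 5.86, 7.88 and 5.44 in the knock-in cells. Tshz2, a zinc finger homeobox gene, went from 1.80 to 0.281 (log2 -2.32) and was above 0 in 81.7% and 12.1% of cells. It passed 1 in size in all 3 classes, as did Gm17660 (0.317 to 1.47, log2 1.92), Gm14216 and Ptgds. In the Adarb2 type Tshz2 gave -1.68, while over all cells of the series it gave -0.47.

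**Figure D5:**
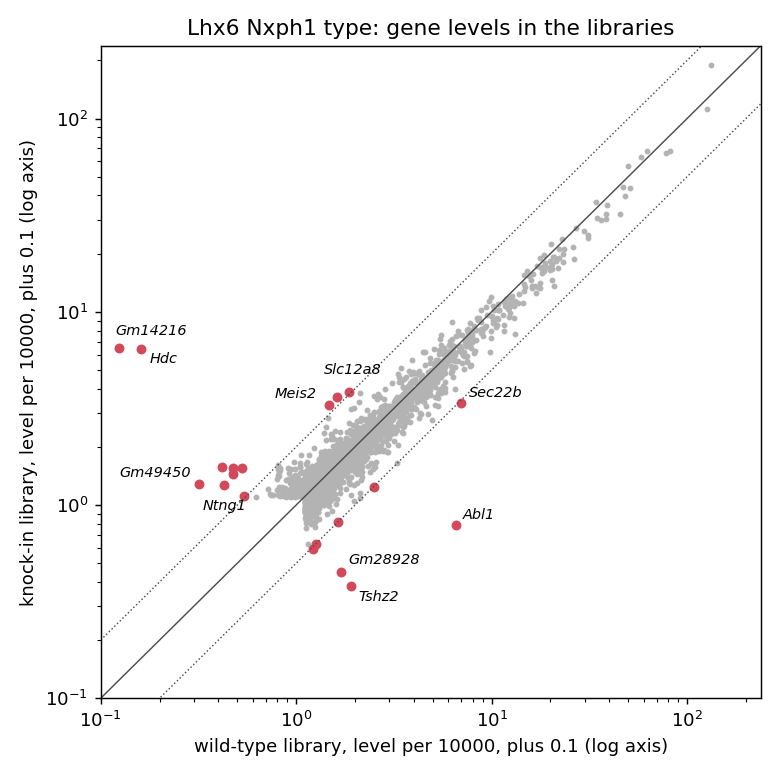
Level per 10000 plus 0.1 in the wild-type (x axis) and knock-in (y axis) Lhx6 Nxph1 type cells, both on log axes, for the 2117 genes that met the level and detection limits. Red points are the 20 genes past the size rule, the solid line marks equal levels and the dotted lines a 2-fold difference. Hdc and Gm14216 lie far to the upper left, Abl1 lies to the lower right, and most grey points follow the solid line.

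Smaller differences were found in signalling and other genes. The p38 kinase gene Mapk14 went from 1.52 to 3.52 (log2 1.16, Adarb2 type 0.99) and Rab40b from 0.426 to 1.45 (log2 1.56, Adarb2 type 1.57). Slc12a8 (log2 1.04), 4932441J04Rik (1.04) and Gm49450 (2.01) were higher as well. In the 4 subclusters named for an interneuron subtype Gm49450 gave 0.88 and no longer passed. Cyp4x1, known to differ in other cells of the series, went from 0.231 to 0.961 (log2 1.68) and missed the level limit. Of the lower genes, Gm28928 gave -1.91, but the Adarb2 type gave 0.73 and all cells of the series 0.78. Gm28928 was above 0 in 17.1% of wild-type and 17.6% of knock-in members. Of the 3 named classes, 2 had the same direction and 1 passed 1 in size. Gm49678 gave -1.04, and -0.19 with equal weight for each subcluster, and it leads subcluster 9. It lost the call in 6 of 10 alternatives. 6330411D24Rik gave -1.02, and it, Slc12a8 and 4932441J04Rik each lost the call in 4 of the 10. How the counting treated overlapping genes is not given in the sources used here, so the unnamed gene models are uncertain.

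Ntng1, which encodes the GPI-anchored adhesion protein netrin-G1, went from 0.329 to 1.18 (log2 1.57), above 0 in 17.1% and 29.1% of cells. In the Adarb2 type, where its level was 7.73 and 5.78, the ratio was -0.41, and the difference between the types was not tested. Ntng1 was the 1 gene of the 18 GPI-anchored protein genes meeting the limits that passed, beside 0.945% of all 2117 genes. It lost the call in 2 of the 10 alternatives. At a mean level of 0.2 or more there were 33 such genes, whose median log2 ratio was -0.04, beside 0.04 over all 8004 genes at that level. Cntn5, a contactin, was at 16.1 in wild-type cells and 15.5 in knock-in cells, and the limbic membrane protein gene Lsamp was at 81.7 in wild-type cells and 67.9 in knock-in cells. None of the GPI biosynthesis genes passed, of which 1 of 27 met the limits and 16 had a median of 0.04.

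Among the 24 Eph receptor, ephrin and Abl kinase genes, 8 met the limits and Abl1 was the 1 that passed. Abl2, the related kinase, was at 1.16 in wild-type cells and 1.30 in knock-in cells. Epha6 stood at 20.2 in wild-type cells and 16.5 in knock-in cells and Efna5, a GPI-anchored ephrin, at 5.92 in wild-type cells and 5.52 in knock-in cells. The median over 13 genes of the list was -0.10.

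Over all 2117 genes 0.945% passed, so a short list may hold none without being set apart from the rest. No listed gene of interneuron function passed in either direction. That holds for 15 ionotropic glutamate receptor genes (median log2 -0.18 over 16), 8 GABA-A and GABA-B receptor genes (median 0.05 over 14), 26 ion channel genes (median 0.10 over 36) and 22 adhesion genes (median -0.08 over 31). Gad1 was at 2.56 in wild-type cells and 2.76 in knock-in cells, Gad2 at 5.76 and 5.36 and the vesicular GABA transporter gene Slc32a1 at 1.10 and 1.24. The Sst subtype markers all gave negative ratios, 6 of 6 at the 0.2 level, with a median of -0.45, and Elfn1 at 3.18 in wild-type cells and 1.55 in knock-in cells just missed the rule (log2 -0.99). Sst itself gave -0.41 and Npy -0.88. Within the Sst-like subcluster Sst stood at 4.13 and 6.14 and Elfn1 at 5.04 and 3.28, so the direction of Sst was not kept there. Subcluster 9, with 5 of the 7 Sst markers, held 12 wild-type members of 82 but 7 knock-in members of 165, and the part of this mix in the lower levels was not tested.

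Summed levels of markers of other cells and of RNA content differed between the libraries, in either direction. Cytosolic ribosomal protein genes summed to 14.4 and 28.4 in these cells, with 54 of 55 ratios positive, to 20.3 and 24.7 in the Adarb2 type, and to 42.8 and 52.0 in all other cells. Mitochondrially encoded genes summed to 10.2 and 15, with 7 of 7 positive, to 23.1 and 20.9 in the Adarb2 type, the other way, and to 29.9 and 44.3 in all other cells. Astrocyte markers summed to 1.23 and 2.49 (2 of 6 at a mean level of at least 0.2), mature oligodendrocyte markers to 1.05 and 2.11 (3 of 6) and microglia markers to 0.402 and 1.40 (1 of 6, C1qa, with no marker at 0), against 0.616 and 0.448 in the Adarb2 type and 8.12 and 10.1 in all other cells. C1qa stood at 3.81 in subcluster 6 (4 wild-type and 16 knock-in cells) and at 0.805 or less in the other subclusters. Mature oligodendrocyte markers summed to 19.1 and 16.4 in all other cells. Oligodendrocyte precursor markers (1.83 and 1.33) and Cajal-Retzius markers (8.29 and 5.56) had lower sums in the knock-in members. Their part in the differences was not tested.

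Beside these values stand Ptgds, the prostaglandin D synthase known from oligodendrocytes and meninges, which went from 0.378 to 1.35 (log2 1.60), and Tmsb4x, a thymosin abundant in microglia, from 0.378 to 1.45 (log2 1.70). Without the 3 glia-named subclusters the ratios were 1.47 and 1.72, and in the 4 subclusters named for an interneuron subtype they were 1.35 and 0.33. Meis2 went from 1.38 to 3.18 (log2 1.15), and 5 wild-type and 29 knock-in cells held it at 3 or more. Kit (-1.01) and Gm12296 (-1.0) turned to 0.34 and 0.71 in the 4 named subclusters, so their direction was not kept there. Abl1, Hdc and Gm14216 stood at -3.14, 6.07 and 6.05 there.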

How the data were processed

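Droplet transcriptomes of the hippocampus were deposited as 1 table of 30223 genes by 15930 cells. The authors' values are whole numbers of depth-corrected data and were treated as the unit score, since totals per cell lay between 4846 and 14501. Seurat 3.0.0 and the build GRCm38 are named in the submitters' processing notes; the aligner and any filter on cells are not given in the sources used here. With no raw counts the sequencing depth is unknown and no count model was used.

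Levels are the sum of a gene over the cells divided by the sum of all values, times 10000. Log2 ratios have 0.1 added to both levels, which understates changes of low genes. With 1 library per genotype there was no test, and a size rule (absolute log2 ratio of at least 1, level of at least 1, at least 10% of cells above 0) stood in. On simulated data with Poisson spread it recovered changed genes, whose changes and starting levels were set above these limits. It was not tried near the limits or on a mix of subtypes. Cell types, marker and gene lists and members were chosen with earlier results of these data known. Named genes are the rule genes, listed genes, up to 12 past the rule in each direction of each contrast, 15 leading genes and the 5 leading genes of each subcluster. Further leading genes of subclusters are named where they explain a missing name.

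Subclusters came from scanpy 1.11.5 (Leiden, resolution 1, 1000 variable genes without sex-linked genes, 15 principal components, 10 neighbours) under Python 3.11.15 with scikit-learn 1.9.0 and igraph 0.11.9. The naming rule was set after the subclusters were seen: a marker counts at 25% of cells and 1.5-fold over the other members; a name needs 3 and no tied class, no other class with more markers among the 10 leading genes, and either 1 marker of its own among these or a share of at least 0.5 of the class's markers counted. Doublets were kept; Scrublet (expected rate 6%) called 61 wild-type and 209 knock-in cells. Shares have exact Clopper-Pearson 95% intervals (scipy 1.17.1), which cover counting error only. Shares were also computed after thinning each cell to a total of 1000, and no cell was too shallow for it. Promoter windows are from RefSeq, gene positions from GENCODE M21.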

Additional observations from a re-analysis of the deposited data

Results flagged for a closer look

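Slc1a2, the glutamate transporter gene of astrocytes, went in opposite directions in the libraries when members with Sst at 5 or more were set against those with Sst below 2. The log2 ratio was 1.63 for wild-type and -2.50 for knock-in cells. Its level over all members was 0.719 and 1.39, against 6.20 and 7.31 in all other cells. The astrocyte-like subcluster held 1 wild-type member, with Sst at 13, and 5 knock-in members, each with Sst at 0. Slc1a2 stood at 27.8 in this subcluster, against 0.529 in the other members. The part of these cells in the difference between the libraries was not tested.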

How the results depend on the processing

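No paired analysis was possible because each genotype is 1 library and no result comes from a test; for the same reason no replicate could be left out. Counts of genes are given as higher and lower. Of the 20 genes between the libraries (12 and 8), a pseudocount of 0.5 left 3 lower, a minimum level of 0.5 gave 40 and 14, no filter 167 and 25, and setting values of 1 to 0 gave 29 and 14. Without Scrublet doublets 4 were lower, without glia-named subclusters 5, and with Gad1 plus Gad2 at 6 or more 19 were higher. Kit and Gm12296 turned to 0.34 and 0.71 in the subclusters named for an interneuron subtype, and Abl1, Hdc, Gm14216, Tshz2, Gm17660, Gm28928, Ptgds and Rab40b kept their direction and stayed past the rule in all 10 alternatives. Taken class by class, Gm28928 kept its direction in only 2 of the 3 named classes. The alternatives that use the glia-named or the named subclusters were chosen after seeing the data. Against the Adarb2 type (59 and 56), a pseudocount of 0.5 gave 38 and 34 and no filter 134 and 111. With Sst (58 and 95), a minimum level of 0.5 gave 149 lower and no filter 121 and 274. The share of the library at the stricter Gad sum was 0.677% and 1.27%. Sst at 2 or more was in 30.5% and 24.8% of members, Sst at 10 or more in 5.45% of knock-in members, Pvalb at 2 or more in 7.88% and Npy at 2 or more in 9.09% of them, and thinned Pvalb in 1.22% of wild-type members. A resolution of 0.5 gave 7 subclusters. The cause of these shifts was not tested.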

Other observations

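Markers of immature neurons were also read in the chosen cells. Dcx, a microtubule protein of migrating neurons, stood at 1.45 in wild-type and 1.80 in knock-in members, against 0.230 and 0.344 in all other cells, and Sox11 at 0.329 and 0.842, against 0.303 and 0.410. All 4 markers of the immature neuron list had positive log2 ratios between the libraries (median 1.05), and none passed the size rule. Subcluster 7, led by Kit, held Ccnd2 at 3.61 against 0.37 in the other members.

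Activity-induced and heat shock genes were low, with 4 of 20 at a mean level of at least 0.2, and their summed level was 2.48 and 2.59.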
